A study of Mus musculus with 14 samples.

Results

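The 7 genes described here, Bcl6, Mef2b, S1pr2, Rgs13, Gcsam, Fas and Gna13, are used to recognise germinal centre (GC) B cells. They were taken by symbol from the 32285 genes counted in each library, and all 7 were present once. They were followed in white nodules of 7 Eif3e fl/fl Cγ1Cre mice that also carried the Rosa26-YFP LSL reporter (cKO mice), in which Cre follows transcription of the Ig γ1 locus and so acts in activated B cells. Every nodule came from a cKO mouse, and no healthy or Cre-negative tissue was analysed here. The study reported that tumor B cells and CD4 T cells of these mice lacked YFP and had normal eIF3e protein. The clones described below are therefore not to be read as Eif3e-deleted cells, and deletion was not examined here. For each nodule, RNA was counted in single cells and the rearranged antigen receptors were read in a paired V(D)J library. The B cell receptor (BCR) was read in 5 nodules. These were from the liver of mouse 27 and the lung of mouse 29, both aged 12 mo, the spleen of mouse 31 at 13 mo, the thymus of mouse 33 at 16 mo, and lung and thymus of mouse 34 at 9 mo. The T cell receptor (TCR) was read in 2 nodules, from the liver of mouse 30 at 14 mo and the spleen of mouse 32 at 12 mo. The tumor of mouse 27 was a secondary one grown in a Rag2-/- recipient, which lacks B and T cells of its own, whereas the others were primary, and donor and host cells were not told apart in it. With 1 nodule per mouse, site, age and mouse cannot be told apart.

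GCs are the sites in lymphoid follicles where activated B cells divide, mutate their receptors and are selected. BCL6 is the transcriptional repressor that GC B cells and follicular helper T cells need, and MEF2B is a transcription factor that binds the BCL6 gene in human GC B cells. S1PR2, a receptor for sphingosine-1-phosphate, signals through the G protein subunit Gα13, encoded by Gna13, to keep B cells inside the GC, and RGS13 is a GC-enriched regulator that dampens G protein signals from chemokine receptors. GCSAM is an adaptor protein of GC B cells that restrains migration, and FAS is a death receptor carried by GC B cells and by many other activated cells. Loss of GNA13, S1PR2 or FAS and mutation of MEF2B or BCL6 are known from human GC-type B cell lymphoma.

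Promoters of the members were taken from RefSeq (GRCm38.p6, the build family that the labels name), as 300 bases from 250 before to 50 after each annotated start. All 7 genes matched, and Bcl6 had 2 starts. Shown here are 4 promoters, chosen after levels and matches were seen, of genes that differed strongly between the B clones. They are the downstream one of Bcl6, which had the most matches, those of Mef2b and Gcsam, and that of Rgs13 beside them because its level had another pattern. The letters searched, on both strands, were ATGCAAAT (octamer), the MEF2 core (a palindrome with an A/T-rich centre, here with any bases there), TTCNNNGAA (the spaced half-sites shared by BCL6 and STAT factors), CCAAT (the letters that NF-Y binds), TATAAA (the TATA box) and GAGGAA (the core of PU.1 sites), and matches to these 6 stand in capitals and did not overlap. The short runs CANNTG (E-box) and GGGCGG (GC box), which 72.3% and 35.7% of promoters hold, were also searched and are left in lower case. The downstream Bcl6 promoter (chr16:23981234-23981533, minus strand) held 3 matches to TTCNNNGAA. Over all 32851 promoters of the same length, 8.30% held at least 1 such match and 0.0335% held 3 or more. The Mef2b promoter (chr8:70152511-70152810, plus strand) held an octamer, found in 1.74% of promoters, and a CCAAT box, found in 37.4%. The Gcsam promoter (chr16:45610190-45610489, plus strand) held 2 GAGGAA matches, a run found in 28.3% of promoters. The Rgs13 promoter (chr1:144177323-144177622, minus strand) held none of the 6 runs, and it had 0 CpG, as had 5.43% of all promoters, against a median of 7. Among those not shown, the S1pr2 and Gna13 promoters held none of the 6 runs, the Fas promoter held 1 TTCNNNGAA, and the upstream Bcl6 promoter held 1 TTCNNNGAA and 1 GAGGAA. No member promoter held the MEF2 core, which 3.69% of all promoters did. A match is a run of letters and no measurement of binding.
Bcl6, downstream start: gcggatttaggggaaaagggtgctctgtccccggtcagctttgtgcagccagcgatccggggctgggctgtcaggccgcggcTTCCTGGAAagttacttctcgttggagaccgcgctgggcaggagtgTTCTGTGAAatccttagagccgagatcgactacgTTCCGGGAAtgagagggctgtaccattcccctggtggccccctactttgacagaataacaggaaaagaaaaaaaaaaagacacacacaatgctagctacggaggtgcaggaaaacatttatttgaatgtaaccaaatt
Mef2b: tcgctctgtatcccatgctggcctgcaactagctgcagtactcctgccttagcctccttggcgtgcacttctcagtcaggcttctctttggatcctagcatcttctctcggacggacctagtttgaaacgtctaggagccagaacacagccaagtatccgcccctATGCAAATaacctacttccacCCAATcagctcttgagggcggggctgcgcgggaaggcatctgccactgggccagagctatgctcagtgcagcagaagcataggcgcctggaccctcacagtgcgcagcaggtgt
Gcsam: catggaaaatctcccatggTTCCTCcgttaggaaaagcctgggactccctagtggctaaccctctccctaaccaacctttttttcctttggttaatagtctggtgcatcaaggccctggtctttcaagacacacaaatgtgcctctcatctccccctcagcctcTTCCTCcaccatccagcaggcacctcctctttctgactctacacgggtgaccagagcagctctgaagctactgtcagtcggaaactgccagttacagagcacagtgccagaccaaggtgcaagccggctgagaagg
Rgs13: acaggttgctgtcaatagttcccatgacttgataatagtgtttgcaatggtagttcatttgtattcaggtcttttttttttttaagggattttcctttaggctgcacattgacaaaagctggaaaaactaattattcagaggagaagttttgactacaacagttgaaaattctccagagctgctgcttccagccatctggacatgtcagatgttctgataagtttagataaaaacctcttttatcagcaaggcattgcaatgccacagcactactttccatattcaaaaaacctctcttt

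Cells that carried the dominant receptor of a nodule are called the clone. The BCR clones of mice 27, 29, 31, 33 and 34 held 1782, 323, 3974, 1084 and 1416 cells. Between 91.3 and 99.5% of them fell into B-like clusters, which were named from markers other than the 7 genes. The TCR clones held 2107 cells in mouse 30 and 4868 in mouse 32. Cells outside the clone were split into other B cells (B-like, with a BCR call whose rearrangements did not match the clone), other T cells (T-like, outside the clone, and in the TCR nodules only those with another TCR) and further classes. Median depth was 9367 to 13763 UMIs per cell in the BCR clones and 1190 to 3504 in other T cells. Levels are UMI counts scaled to the summed UMIs of a group in a library (CPM, counts per 1e+06 UMIs), with 95% Poisson intervals that cover counting error only. Of the 75503 cells, 8.40% had a barcode that also occurred in another library.

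The B clones fell into 3 with high levels of the GC genes and 2 with low levels. In mice 27, 31 and 34, Mef2b was at 354 CPM (346 to 363), 344 CPM (339 to 350) and 159 CPM (153 to 165). In mice 33 and 29 it was at 28.5 CPM (26.0 to 31.2) and 5.39 CPM (3.33 to 8.23). Gcsam was at 175, 418 and 137 CPM in the clones of mice 27, 31 and 34, and at 12.8 and 2.31 CPM in those of mice 33 and 29. S1pr2 was at 117, 106 and 41.8 CPM in the same 3 clones and at 9.75 and 2.05 CPM in the other 2. The clones of mice 27, 31 and 34 thus stood above those of mice 33 and 29 for each of these 3 genes, and the counting intervals of the high and low clones did not overlap. Bcl6 had the same split with a smaller spread, at 99.96, 182 and 147 CPM against 39.3 and 27.96 CPM. These are single clones with no replicate nodule, so the differences between them had no test.

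Rgs13 departed from this split. Its level was 493 CPM in the clone of mouse 34 (483 to 504). In mice 27, 29, 33 and 31 the clones had 13.4, 7.95, 0.662 and 0.329 CPM. The clone of mouse 31, which had the highest Bcl6 and Gcsam of the 5, had the lowest Rgs13, with 16 UMIs among 3974 cells. For mice 27, 29, 31, 33 and 34 in that order, Fas was at 208, 23.9, 64.2, 75.1 and 86.8 CPM. Gna13, which is expressed widely, ranged least, at 467, 140, 281, 226 and 329 CPM. Mouse 29 was lowest for 6 of the 7 genes, all but Rgs13. B-like cells of the same nodules that had no BCR call kept the split, with Mef2b at 312, 378 and 121 CPM in mice 27, 31 and 34 and at 34.6 and 6.27 CPM in mice 33 and 29. These cells are no separate population. The B-like clusters of mice 27, 31, 33 and 34 had V genes of the clone among their leading genes. That of mouse 29 had Igkv1-135 of its clone beside Ighm and other Igkv genes. Clone cells without a call were not told apart from other B cells here. Rgs13 in these cells was at 495 CPM in mouse 34 and 0.892 to 17.4 CPM in the other 4 nodules.

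**Figure D1:**
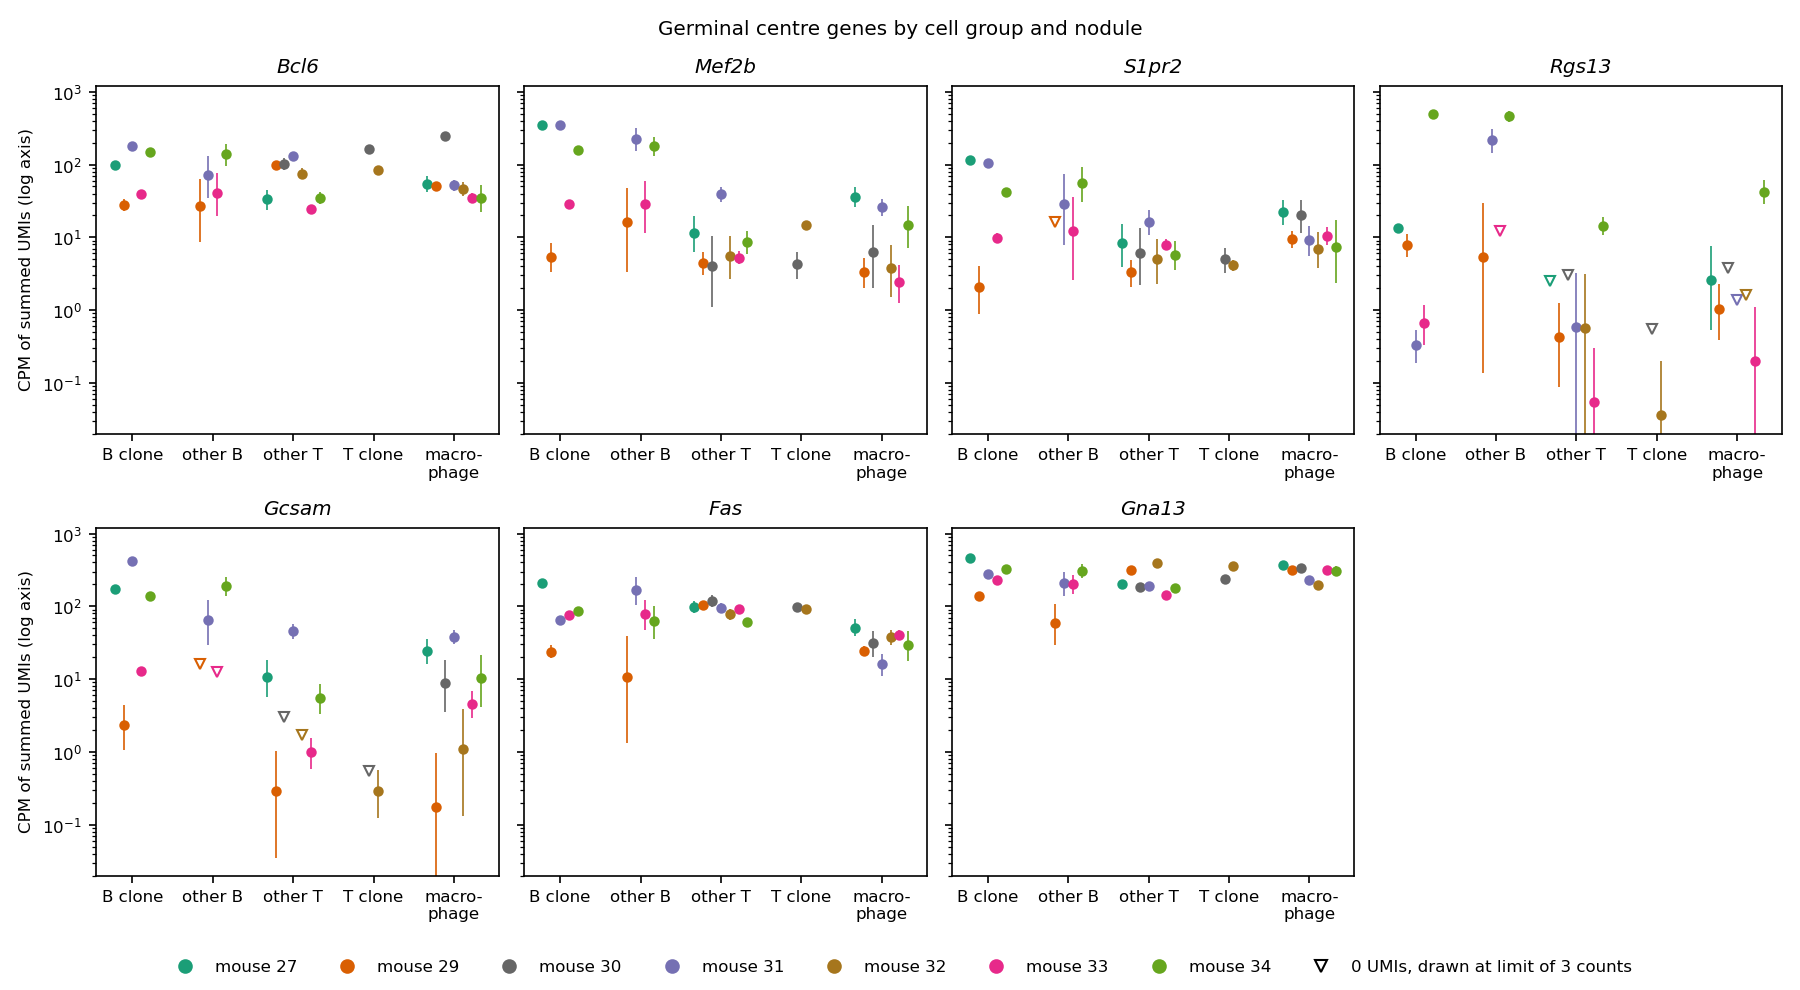
CPM of summed UMIs on a log axis for each of the 7 genes, by cell group. Each point is 1 nodule library, bars are 95% Poisson intervals, and open triangles mark 0 UMIs at the limit of 3 counts. The B clones of mice 27, 31 and 34 lie above those of mice 29 and 33 for Bcl6, Mef2b, S1pr2 and Gcsam, and Rgs13 is high in the clone of mouse 34.

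The same split was seen in single cells. At least 4 of the 7 genes were detected in 82.4%, 84.6% and 82.8% of clone cells of mice 27, 31 and 34, but in 18.5% and 1.24% of those of mice 33 and 29. With each cell thinned to 5000 UMIs, which left out shallower cells, the shares were 57.3%, 52.7%, 49.8%, 2.41% and 0.316% in the same order. No member was detected in 16.7% of clone cells of mouse 29 and in 0.141 to 5.996% of those of the other clones. T clones reached 4 genes in 0.237% of cells (mouse 30) and 1.68% (mouse 32), and other T cells in 0 to 0.739%. At least 1 Gcsam UMI was found in 92.2% of clone cells of mouse 31 and Rgs13 in 89.7% of those of mouse 34. Macrophage-like cells of the same libraries, which are not known for either gene, held Gcsam in 11.4% (median depth 2342 UMIs) and Rgs13 in 13.5% (median 5277). After thinning to 1000 UMIs the shares were 33.3% against 3.35% for Gcsam and 37.4% against 6.59% for Rgs13.

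**Figure D2:**
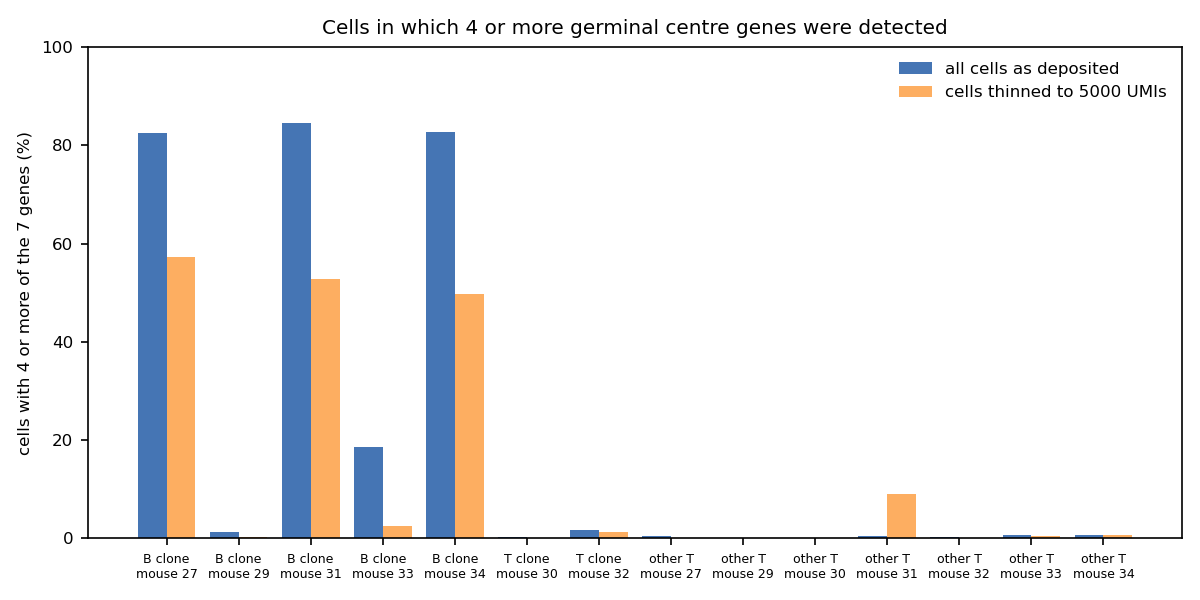
Percentage of cells in which 4 or more of the 7 genes had a UMI, by group and mouse, for cells as deposited (blue) and thinned to 5000 UMIs (orange). The B clones of mice 27, 31 and 34 reach 82.4 to 84.6% as deposited, and the orange bar of other T cells in mouse 31 rests on 22 cells.

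The genes around the members were then read in the same clones. These levels are descriptions, and the genes named in this paragraph were chosen after their values were seen. S1pr1, the receptor that draws lymphocytes out of tissue, was at 253 CPM in mouse 29, where S1pr2 was lowest, against 6.84 to 69.0 CPM in the other 4 clones. Foxp1 (558 CPM) and Bach2 (367 CPM) were also highest in mouse 29, with 6.50 to 293 CPM and 10.1 to 168 CPM elsewhere. In mouse 33, Cd44 (443 CPM), Bcl2 (289 CPM), Ccnd2 (158 CPM), Gpr183 (141 CPM) and Ccr6 (58.8 CPM), all known as repressed by BCL6, were each the highest of the 5 clones. Over the 14 genes of that list, the clone of mouse 33 was highest for 7, those of mice 27, 29 and 34 for 2 each and that of mouse 31 for 1. Of the other regulators of G protein signals, Rgs1 was at 80.9, 57.2, 3.21, 195 and 557 CPM in mice 27, 29, 31, 33 and 34, and Rgs2 was highest in mouse 29 (343 CPM) and Rgs16 in mouse 27 (46.3 CPM). Ncor1, a corepressor of BCL6, was at 186 to 242 CPM in the 5 clones.

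B clones were compared with other T cells of the same nodule, which asks which members marked the clone against the lymphocytes around it. Mef2b and Gcsam were higher in the clones, and the other 4 genes tested did not pass the threshold. In other T cells Gcsam was at 10.8 CPM (mouse 27), 0.287 CPM (29), 45.6 CPM (31), 0.988 CPM (33) and 5.46 CPM (34), below the clone in all 5 mice, although the ranges over mice overlapped. The difference was 3.85 ± 0.27 on the log2 scale (SE, n = 5 pairs, edgeR quasi-likelihood test, adjusted p = 0.000461). Mef2b was at 11.6 CPM, 4.45 CPM, 39.2 CPM, 5.27 CPM and 8.62 CPM in the other T cells of the same mice, again below the clone in all 5 mice, with a difference of 3.12 ± 0.63 (edgeR adjusted p = 0.0113). In mouse 29, however, the clone had 21 Mef2b UMIs (5.39 CPM) and the other T cells 31. The counting interval of that clone, given above, included the value of the T cells, so no direction is shown in mouse 29. S1pr2 was at 8.28, 3.30, 16.4, 7.96 and 5.75 CPM in those T cells, under the clone in 4 of 5 mice, and did not pass (1.93 ± 0.66, edgeR adjusted p = 0.0654). In this comparison 28.4% of 12477 genes passed in either direction, 13.0% were higher and 15.5% lower. Rgs13 was not tested, because it did not pass the filter on low counts. It was higher in the clone in 4 of 5 mice. The clones of mice 27, 29, 31 and 33 had 244, 31, 16 and 11 of its UMIs, and the other T cells of those mice 0 to 3. In mouse 34 it was at 493 CPM in the clone and 14.4 CPM in other T cells. A fit without the pairing by mouse gave Gcsam 3.75 (edgeR adjusted p = 0.0828). Leaving out cells with both Cd3 and B cell UMIs raised the difference of Gcsam to 4.46 and that of Mef2b to 3.47.

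Bcl6, Fas and Gna13 were shared with T cells. Bcl6 was at 33.1 CPM (mouse 27), 97.7 CPM (29), 130 CPM (31), 24.8 CPM (33) and 35.1 CPM (34) in other T cells. It was higher in the clone in 4 of 5 mice and lower in that of mouse 29 (log2 difference over all 5 mice 0.71 ± 0.53, edgeR adjusted p = 0.345). Gna13 was likewise higher in the clone in 4 of 5 mice (0.51 ± 0.34, edgeR adjusted p = 0.293), and Fas in 2 of 5 (-0.19 ± 0.42, edgeR adjusted p = 0.764). Without mouse 29 the differences were 1.25 for Bcl6 (edgeR adjusted p = 0.0273), 0.89 for Gna13 (0.0154) and 2.44 for S1pr2 (0.0275), all 3 past the threshold, and Fas turned to 0.25 (0.539). S1pr2 also passed with mouse 29 kept, in DESeq2 (adjusted p = 0.00537) and in edgeR without the filter on low counts (0.0373) or without the replicate block (0.0454).

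The context lists were read in the same comparison. Of 17 other GC genes tested, 13 were higher in the clones and 0 lower, with a median log2 difference of 2.24 against 0.04 over all genes tested. Pou2af1, a B cell coactivator that GCs need, differed by 3.94, Cd22, an inhibitory receptor of B cells, by 3.42, and Irf8, a transcription factor of GC B cells, by 2.84. The 2 arms differ in lineage, so these counts cannot separate GC genes from B cell genes at large. Cd22 was also among the markers that named B-like clusters. Against other B cells 0 of 17 passed, with a median of 0.37 against 0.13 over all genes tested. Against the other T cells, 6 of 14 genes known as repressed by BCL6 were lower and 1, Irf4, was higher. Prdm1, the plasma cell repressor (-2.72), and Cd69 (-1.33) were among the lower ones, and T cells express both. No BCL6 corepressor passed in 8 tested. Among 20 genes of migration and confinement, 6 were lower, among them Rgs16 (-3.62) and S1pr4 (-5.25), and Cxcr5, the follicle homing receptor, was higher (1.28). Of 10 death receptor genes, Bid was higher (1.89) and 4 were lower, led by Fasl (-7.20), the ligand of FAS. Against the 13.0% higher and 15.5% lower of all genes, 3 of 10 light zone genes were higher and 3 lower, as were 1 and 4 of 11 resting B cell genes, 4 and 1 of 5 plasma cell genes, and 1 and 8 of 11 genes of follicular helper T cells. Nothing particular to these short lists is read from such counts. The MEF2 family was led by Mef2c (4.01), with Mef2a also higher (1.28) and Hdac4 lower (-2.14).

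Other B cells of the nodules were few, with 32, 41, 27 and 24 in mice 29, 31, 33 and 34. Mouse 27 had none. Against these cells no member passed the test (edgeR adjusted p from 0.521 for Gcsam to 0.996 for Mef2b), and 0.0217% of 9229 genes passed, namely Ighm and Igkv4-91, both lower in the clones. At an unadjusted p under 0.05 there were 986 genes, and DESeq2 called 128. Rgs13 was higher in the clone in 3 of 4 mice, yet its fitted difference was -2.28, and 0.16 without mouse 31. Its UMIs in other B cells were 1 in mouse 29 and 0 in mouse 33, too few to give a direction there. In mouse 34, 108 of its 116 UMIs in other B cells lay in cells that shared a V gene with the clone. The other B cells were not all unrelated to the clone. In mouse 34, 8 of the 24 belonged to the largest clonotype that the authors called. In mouse 33, 22 of 27 had a receptor contig with a V gene of the clone, as had 9 of 24 in mouse 34, 1 of 41 in mouse 31 and 0 of 32 in mouse 29. With such cells left out, a choice made after seeing the data, 32, 40, 5 and 15 cells remained. Gcsam then had 0 UMIs in the other B cells of mice 29, 33 and 34 and 68.7 CPM in mouse 31, against 2.31, 12.8, 137 and 418 CPM in the clones. A count of 0 allowed up to 16.2, 58.7 and 18.7 CPM in mice 29, 33 and 34, so that, of these 3, the clone of mouse 34 alone lay above its limit. The fitted difference became 3.61 (edgeR adjusted p = 0.00782), a value that depends on these zeros and on sums of 5 cells in mouse 33 and 15 in mouse 34, under the 20 required elsewhere. Rgs13 (-1.06) and the other 5 members did not pass.

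Rgs13 in other B cells was seen in cells with named receptors. In mouse 31 it was at 216 CPM in other B cells (146 to 309), against 0.329 CPM in the clone. Its 30 UMIs lay in 9 of the 41 cells, and 6 of these 9 had the light chain gene IGKV10-94, which was the commonest among the other B cells there, in 13 of 41. Those 13 cells held 12 of the 30 UMIs, and the cells with IGHV1-26 and IGLV2 held 6 and 7. Of the 9 cells, 1 shared a V gene with the clone, and it held 5 UMIs. In mouse 34 the other B cells were at 458 CPM. All 9 cells there that shared a V gene with the clone had Rgs13, whereas the 15 without one were at 49.8 CPM (21.5 to 98.1), from 8 UMIs of which 7 lay in 1 cell. Other T cells, macrophage-like cells and neutrophil-like cells of mouse 34 held 14.4, 42.6 and 99.4 CPM, against 0 to 2.60 CPM in the same classes of the other nodules. The part of free RNA in these values was not tested.

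**Figure D3:**
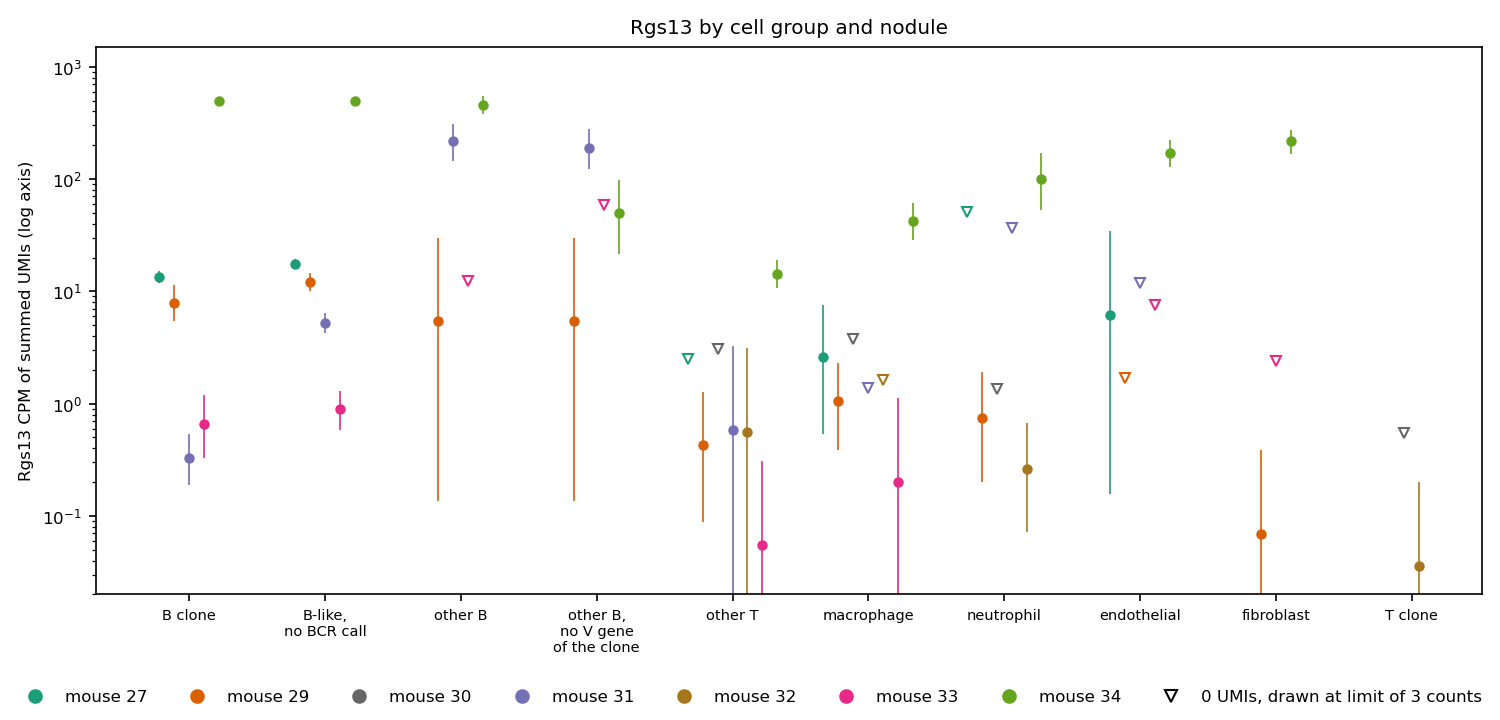
Rgs13 CPM of summed UMIs on a log axis by cell group and nodule, with 95% Poisson intervals. Open triangles mark 0 UMIs at the limit of 3 counts. Other B cells of mouse 31 stand at 216 CPM while its clone stands at 0.329 CPM.

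T clones were compared with other T cells of mice 30 and 32, since Bcl6 also marks follicular helper T cells. Bcl6 was at 165 and 84.6 CPM in the T clones of mice 30 and 32, against 103 and 75.3 CPM in the other T cells. Fas was at 98.3 and 91.8 CPM in the clones and 118 and 78.1 CPM in the others, and Gna13 at 239 and 353 CPM against 183 and 390 CPM. Bcl6 was higher in both clones, but did not pass the test (0.28 ± 0.26, edgeR adjusted p = 0.840). None of the 5 members tested passed, and 0.215% of 11639 genes did. Gcsam had 0 UMIs in the T clone of mouse 30 (limit 0.553 CPM) and was at 0.289 CPM in the other, and Rgs13 was at 0 and 0.0361 CPM. Of the context lists, Fasl alone passed, lower in the T clones by 4.50 on the log2 scale (edgeR adjusted p = 0.0384), at 1.11 to 6.53 CPM against 28.5 to 119 CPM. No gene passed, Fasl included, for the largest clonotype alone or without the pairing by mouse.

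Other T cells were then compared between TCR and BCR nodules, and no member was called. No gene of 10357 passed in edgeR (0%), 316 had an unadjusted p under 0.05 and DESeq2 called 5. Bcl6 in other T cells was at 103 and 75.3 CPM in the TCR nodules and at 24.8 to 130 CPM in the BCR nodules, so the ranges overlapped. Gcsam had 0 UMIs in both TCR nodules (limits 3.05 and 1.69 CPM) and 0.287 to 45.6 CPM in the BCR nodules. Ranges that did not overlap were found for 7.67% of all genes tested, and the highest Gcsam in other T cells stood in mouse 31, whose clone was highest.

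In whole nodules Gcsam and Mef2b kept the split between the clones of mice 27, 31 and 34 and those of mice 33 and 29, whereas the order of Bcl6 and Fas differed from that of the clones. Gcsam was at 153 CPM (mouse 27), 1.02 CPM (29), 389 CPM (31), 8.05 CPM (33) and 84.6 CPM (34) over all cells of the BCR nodules and at 0.831 and 0.539 CPM in the TCR nodules, so that its ranges did not overlap, as in 15.9% of all genes. Mef2b was at 311, 4.34, 327, 22.5 and 124 CPM in the BCR nodules in the same order and at 7.22 and 6.38 CPM in the TCR nodules, so mouse 29 lay below both. Over all cells, Bcl6 reached 61.8 CPM for mouse 29 but 43.9 CPM for mouse 33. Fas reached 99.7 CPM for mouse 29, whose clone was lowest, but 64.3 CPM for mouse 31. In the TCR nodules Bcl6 was at 35.3 CPM in mouse 32 and at 198 CPM in mouse 30, the highest of the 7 nodules, and so separated B from T nodules least. No gene of 19159 passed in edgeR (0%), where 2118 had an unadjusted p under 0.05. DESeq2 called 1054 genes, Gcsam (log2 difference 7.90, adjusted p = 5.2e-05), Mef2b (4.84, 0.00780) and S1pr2 (3.74, 0.0237) among them. The makeup of the nodules differed. B-like clusters held 37 cells in mouse 30 and 26 in mouse 32, against 1759 to 8388 in the BCR nodules. Mouse 32 also had 3998 cells in erythroid clusters, where Bcl6 was at 5.81 CPM outside the clone. The sums alone do not tell fewer cells of a type from less RNA per cell, and the part of each was not tested.

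Within the clones, cycling cells had lower levels of 3 members. Clone cells with at least 5000 UMIs were split into those with 3 or more UMIs of 10 proliferation genes and those with 0. Cycling cells also held more UMIs per cell in every mouse. In mouse 31, 2321 cycling cells held 33705690 UMIs and 392 non-cycling cells 3710559. The part of depth in the differences below was not tested. Gna13 was at 452, 131, 263, 209 and 317 CPM in the cycling cells of mice 27, 29, 31, 33 and 34 and at 556, 150, 345, 258 and 364 CPM in the non-cycling cells, lower in 5 of 5 mice (-0.30 ± 0.07, edgeR adjusted p = 0.00488). Bcl6 was at 99.6, 18.6, 168, 37.4 and 135 CPM against 101.04, 39.9, 218, 44.8 and 184 CPM, also lower in 5 of 5 mice (-0.39 ± 0.10, edgeR adjusted p = 0.00797). Fas was at 194, 26.6, 55.9, 66.3 and 85.9 CPM against 250, 20.6, 89.2, 103 and 86.6 CPM, lower in 4 of 5 mice (-0.40 ± 0.12, edgeR adjusted p = 0.0138). Mef2b (-0.19), S1pr2 (-0.27), Rgs13 (-0.07) and Gcsam (0.09) did not pass (edgeR adjusted p from 0.122 to 0.752). Here 28.5% of 9696 genes passed, 14.3% being higher and 14.2% lower. No call stood in a fit without the pairing by mouse (edgeR adjusted p = 0.9991 for each). Fas lost its call without mouse 31 (-0.27, edgeR adjusted p = 0.133), without mouse 33 (-0.32, 0.0892) and in DESeq2 (adjusted p = 0.0587).

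**Figure D4:**
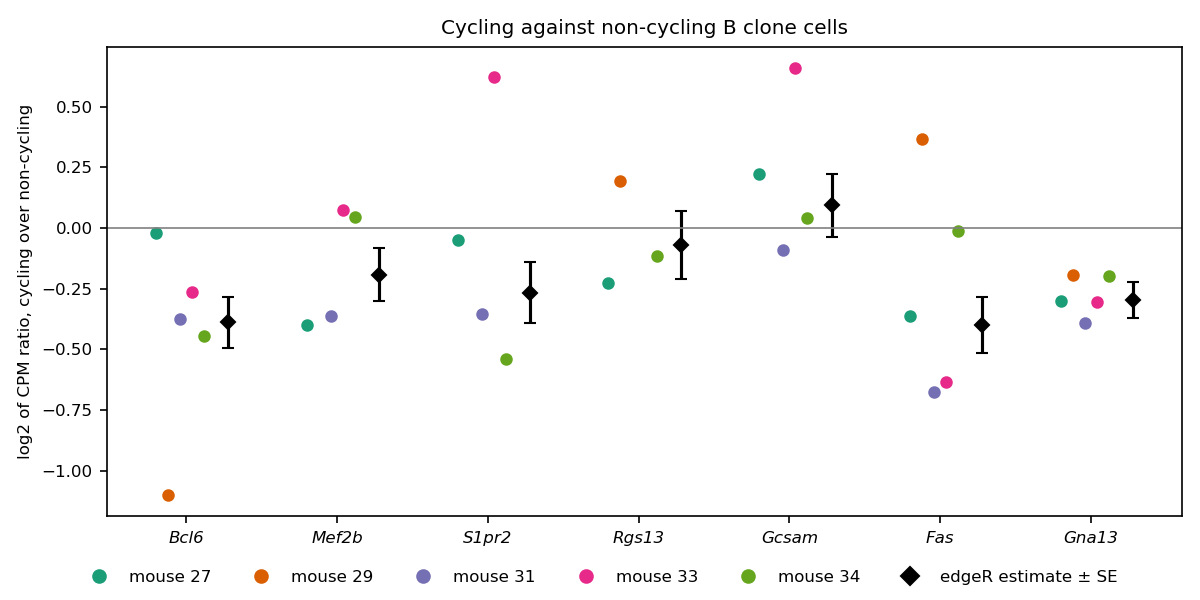
Log2 ratio of CPM in cycling over non-cycling clone cells for each gene. Coloured points are mice, drawn only where both groups had at least 10 UMIs (30 points), and black diamonds are the edgeR estimates with SE. All points of Gna13 and Bcl6 lie below 0.

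The context lists were also read between cycling and non-cycling cells. Of 10 light zone genes tested, 7 were lower in cycling cells and 0 higher, with a median of -0.42 against -0.05 over all genes, led by Cd86 (-0.61), Egr1 (-0.72) and Cd83 (-0.52), which are known from selected GC B cells in the light zone. Of 17 other GC genes, 9 were lower, with Neil1 at -0.74, and Ezh2, a histone methyltransferase that dividing GC B cells need, was higher (0.86). Among 16 migration genes 10 were lower, led by Rgs2 (-0.77) and Klf2 (-0.70). Of 13 genes known as repressed by BCL6, 9 were lower, with S1pr1 at -0.71. Lower too were 5 of 7 resting B cell genes (median -0.50), 3 of 5 plasma cell genes (-0.39) and 3 of 11 MEF2 family genes (-0.13). Of 8 BCL6 corepressors and 8 death receptor genes, 0 were lower. Over all genes 14.2% were lower. Some genes, S1pr1 among them, stand in more than 1 list, so the counts are not independent. Nothing particular to the light zone is read from them.

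The order of the groups differed from gene to gene. By the median over libraries, B clones stood first for Mef2b (159 CPM), Gcsam (137 CPM) and S1pr2 (41.8 CPM). B-like cells without a BCR call, from which uncalled clone cells were not separated, were at 121, 58.1 and 29.1 CPM. The ranges of B clones and of B-like cells without a call overlapped for each of the 3 genes. When cells were classed by their own marker UMIs, B clones stayed first for Gcsam and S1pr2. For Mef2b they came after other B cells (253 CPM, 1 library) and cells classed by plasma markers (167 CPM, 12.1 to 462 CPM over 4 libraries). Those markers include Jchain and Mzb1, which the clone of mouse 27 also held (866 and 863 CPM, with Sdc1 at 0.11 CPM). Plasma cells and clone-like cells were not told apart in that class. For Rgs13 the order began with other B cells (111 CPM), B-like cells without a call (12.1 CPM) and B clones (7.95 CPM), each with a range that reached 458 CPM or more in mouse 34. Without cells that shared a V gene with the clone, the median of other B cells was 27.6 CPM and mouse 34 was at 49.8 CPM. For Bcl6 the first places were held by T-like cells without a TCR call (159 CPM), T clones (125 CPM) and neutrophil-like cells (115 CPM), ahead of B clones (99.96 CPM) and other T cells (75.3 CPM), with overlapping ranges. For every gene, T-like cells without a call and T clones each rested on 2 libraries, those of mice 30 and 32. Mouse 30 was also highest for Bcl6 in neutrophil-like cells (331 CPM) and over all cells (198 CPM). T clone cells without a TCR call were not separated from other T-like cells. For Fas, neutrophil-like (172 CPM), endothelial (150 CPM) and fibroblast clusters (147 CPM) came before T clones (95.05 CPM), other T cells (94.2 CPM) and B clones (75.1 CPM). For Gna13, T-like cells without a call (413 CPM) and macrophage-like cells (311 CPM) came before T clones (296 CPM) and B clones (281 CPM). By the marker UMIs of each cell, B-like cells without a BCR call moved ahead of neutrophil-like cells for Bcl6 (121 against 111 CPM) and of macrophage-like cells for Gna13 (324 against 305 CPM).

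Among 12290 genes, the pattern most like that of each member was sought over 40 sums of a class in a library (Pearson r on log2 of CPM + 1). These correlations are descriptions, since the sums share libraries. Gcsam was closest to 2310067P03Rik (0.953), 5830418P13Rik (0.899) and Gm44659 (0.895), and Mef2b to Rap1a (0.925), Gnaz (0.916) and C8a (0.910). Rgs13 was closest to Gm35281 (0.938), Aire (0.896) and Ighv9-2 (0.867), and S1pr2 to Gm44659 (0.812), Gm15991 (0.800) and 2310067P03Rik (0.779). The closest genes were Inpp4a (0.762) and Gm16894 (0.695) for Bcl6, Spin1 (0.766), Arid5a (0.740) and H2-Q6 (0.722) for Fas, and 9930022D16Rik (0.856), Mapre2 (0.842) and Slc36a3os (0.797) for Gna13. Between members, Gcsam and Mef2b had r = 0.914, Gcsam and S1pr2 0.785, and Mef2b and S1pr2 0.735. Bcl6 was at 0.272 to 0.521 with Mef2b, S1pr2 and Gcsam, and at 0.0540 with Rgs13.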

How the data were processed

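Single-cell RNA and V(D)J libraries were available for 7 nodules, 1 per mouse. The authors deposited raw UMI counts per gene and cell, together with receptor contig tables made with SeekSoulTools; the aligner is not given in the sources used here, and the labels name GRCm38 and mm10. The labels describe a 5' kit and the study's methods a 3' kit, and which was used for the RNA counts was not settled. The members and lists were chosen with earlier results of these data known.

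Cells with at least 201 UMIs, 101 genes and at most 10% mitochondrial UMIs were kept (75503 of 77442), and library totals ran from 19254544 to 122550206 UMIs. Cells were clustered with scanpy 1.11.5 (2000 variable genes without the members, 30 components, 15 neighbours, Leiden resolution 1.0, leidenalg 0.10.2) into 33 clusters and named from markers. The rule that settled mixed clusters was set after cluster names, but not member values, were seen. The 506 doublet-like cells stayed in, and an alternative left them out. A clone was every cell with the commonest heavy or beta chain rearrangement of the nodule, or the light or alpha chain that went with it.

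Raw UMIs were summed per library and group (at least 20 cells, or 5 in the alternative without V gene sharing cells) and tested with edgeR 4.0.16 (TMM, filterByExpr, quasi-likelihood, two-sided, Benjamini-Hochberg over all genes tested, threshold 0.05) in R 4.3.3, with DESeq2 1.42.0 as an alternative. Mouse was a block wherever both sums came from 1 nodule; same-mouse deviations correlated at 0.145 to 0.923. With 1 library per mouse, p-values of the blocked comparisons rest on how the difference within a mouse varied over mice. Those of comparisons without a block rest on the spread between mice. Intervals are 95% (exact Poisson or Clopper-Pearson), and a count of 0 was read as allowing up to 3 counts. The test was tried on simulated counts. Named genes were the 7 members, up to 4 genes of each list with the smallest p in the comparison, and the 3 genes most like each member. A few genes that this rule names are not reported here.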

Additional observations from a re-analysis of the deposited data

Results flagged for a closer look

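Over 70 sets of 4 to 7 libraries, 19 had an end value far from the rest by Dixon's criterion. The sets share libraries, and the sums over all cells contain the other classes. No chance rate is therefore set beside the count, and the flags are descriptions. Of these, 8 were Rgs13 in mouse 34, at 493 CPM in the B clone, 495 CPM in B-like cells without a BCR call, 14.4 CPM in other T cells, 171 CPM in endothelial, 62.6 CPM in erythroid, 42.6 CPM in macrophage-like and 99.4 CPM in neutrophil-like cells, and 433 CPM over all cells. The next highest libraries of the same sets were at 13.4, 17.4, 0.585, 6.17, 5.35, 2.60, 0.743 and 14.6 CPM.

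In mouse 31, whose clone had the highest Gcsam, the values far from the rest were Gcsam in other T cells (45.6 CPM, next 10.8 CPM), over all cells (389 CPM, next 153 CPM) and in other B cells without a V gene of the clone (68.7 CPM, next 0 CPM), Mef2b in other T cells (39.2 CPM, next 11.6 CPM) and erythroid cells (35.2 CPM, next 3.31 CPM), and S1pr2 in other T cells (16.4 CPM, next 8.28 CPM). In mouse 27 they were S1pr2 in endothelial (43.2 CPM, next 6.35 CPM) and neutrophil-like cells (51.4 CPM, next 15.3 CPM) and Fas over all cells (215 CPM, next 105 CPM). Bcl6 in macrophage-like cells of mouse 30 was at 246 CPM (next 54.5 CPM), and S1pr2 in erythroid cells of mouse 32 at 1.59 CPM (next 0 CPM). The criterion took a count of 0 as 0 CPM and not as the limit of 3 counts. Both flags with a next value of 0 CPM rest on that.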

How the results depend on the processing

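Of 419 values for single members under other settings, 375 kept their direction and side of the threshold, 11 gained a call, 7 lost one, 20 changed sign and 6 moved. The cause of the other changes was not tested. B clones against other T cells gave 3547 genes, 2327 to 3053 with 1 mouse left out, and 2806 without the replicate block. Against other B cells the count was 2, with 128 in DESeq2, 117 without a filter on low counts, 7 to 19 with 1 mouse left out, 0 without the replicate block, 127 without cells that shared a V gene with the clone, and 103 in mice 29 and 31 only, the last 2 settings chosen after seeing the data. T clones against other T cells gave 25 genes, with 220 in DESeq2, 4 with RLE factors, 525 without a filter, 0 without the replicate block and 0 for the largest clonotype alone. For other T cells of TCR against BCR nodules the count was 0, with 5 in DESeq2 and 0 to 4 with 1 mouse left out (4 without mouse 29, 1 without mouse 30). Whole nodules gave 0, with 1054 in DESeq2 and 0 to 233 with 1 mouse left out (233 without mouse 29). Cycling against non-cycling cells gave 2768 genes, and 243 without the replicate block.

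Signs changed for members that were not called. Against other T cells, Fas ranged from -0.49 to 0.25 with 1 mouse left out and was 0.045 without the replicate block. Against other B cells, leaving out 1 mouse gave -0.060 to 0.50 for Bcl6, -0.46 to 0.26 for Fas, -0.34 to 0.25 for Mef2b, -4.44 to 0.16 for Rgs13 and -0.29 to 1.08 for S1pr2. Mef2b there was 0.054 without a filter, 0.35 without the replicate block, 0.60 without V gene sharing cells, where Fas was 0.063, and 0.036 in mice 29 and 31 only. Gna13 was 0.028 in T clones without a filter. Leaving out 1 mouse gave -0.17 to 0.33 for Fas and -0.22 to 0.96 for Gna13 in other T cells between nodules, -0.54 to 1.76 for Bcl6 in whole nodules and -0.10 to 0.081 for Rgs13 in cycling cells, where Gcsam was -0.026 without the replicate block. S1pr2 against other T cells passed in DESeq2 (adjusted p = 0.00537), without a filter (edgeR adjusted p = 0.0373) and without the block (edgeR adjusted p = 0.0454). Leaving out 1 mouse was not fitted for T clones, where 1 pair leaves no residual degrees of freedom, and other B cells chosen by Ighm or Ighd were not tested, since mouse 29 alone had 20 such cells. Counts of 0 in the small groups limit what could be detected.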
